A study of Homo sapiens with 6 samples.

Results

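Transcript levels in C4-2, a castration-resistant derivative of the prostate cancer line LNCaP, were compared between cells depleted of DNA-PKcs and cells given a drug that blocks its kinase activity. The samples were chosen by their labels alone: both DNA-PKcs knockdown arrays against both NU7441 arrays, which are 4 of the 6 arrays in the series. The knockdown cells had been transfected with a pool of siRNAs against PRKDC for 96 h, and the NU7441 cells had received the inhibitor at 1 µM for 24 h. The other 2 arrays are controls labelled as DMSO treated. They stayed out of the test, and their levels are given beside the compared arrays. All cells grew in medium that contains hormones. A control siRNA pool is named in the treatment protocol, but the labels tie it to no array, so the agent, the transfection and the time of exposure cannot be told apart in this comparison. PRKDC had no named probeset and is not analysed here, so the labels alone define the knockdown group.

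DNA-PKcs is a large protein kinase that joins the Ku heterodimer on broken DNA ends, and NU7441 occupies its ATP site. Depletion removes the protein with every contact it makes, whereas inhibition leaves an inactive protein in place, so the comparison asks which transcripts differ between loss of the protein and block of its activity. Lipid kinases of the PI3K family and mTOR share the fold of this ATP site, and inhibitors of the family are known to overlap in their targets at high dose.

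The values are linear array intensities turned into log2 and quantile normalized over all 6 arrays. A gene is represented by its brightest named probeset, and genes with a mean log2 intensity above 6 over the 4 compared arrays were tested. Every difference below is the knockdown mean minus the NU7441 mean in log2 units, followed by limma's moderated standard error with 2 arrays in each group. A gene is said to be higher or lower where limma's p-value, adjusted by Benjamini-Hochberg over all genes tested, is under 0.05. Of 14812 named genes 5175 passed the filter. The arrays were not equally tight. Over the tested genes the replicates of a group had a median difference of 0.114 (control), 0.146 (knockdown) and 0.276 (NU7441), and NU7441 replicate 1 had 3797 probesets within 0.01 of the lowest deposited intensity of 16, against 444 to 1471 on the other arrays. That array stood apart at dim genes, and counts without it are given below.

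Of the 5175 genes, 916 (17.7%) differed between depletion and inhibition. Of these, 487 (9.41% of tested genes) were higher in the knockdown cells and 429 (8.29%) were lower. The higher side held the larger differences: 245 genes were higher by 2-fold or more and 37 by 3-fold or more, against 87 and 3 on the lower side. By brightness, 142 genes were higher and 71 lower where the mean log2 intensity was 6 to 7, and 74 were higher and 93 lower where it was over 9. For 77 of the 487 higher genes the NU7441 mean, and for 26 of the 429 lower genes the knockdown mean, was at or below the filter. Without NU7441 replicate 1, 156 and 29 of the higher genes were past 2-fold and 3-fold, against 59 and 4 of the lower ones. The differences ran from -2.17 for LRRN1 to 2.79 for MT1F, with a median of -0.05 over all tested genes. Both knockdown arrays lay on 1 side of both NU7441 arrays for 68.2% of tested genes and for each of the 916 genes past the threshold, so separation alone was common.

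**Figure D1:**
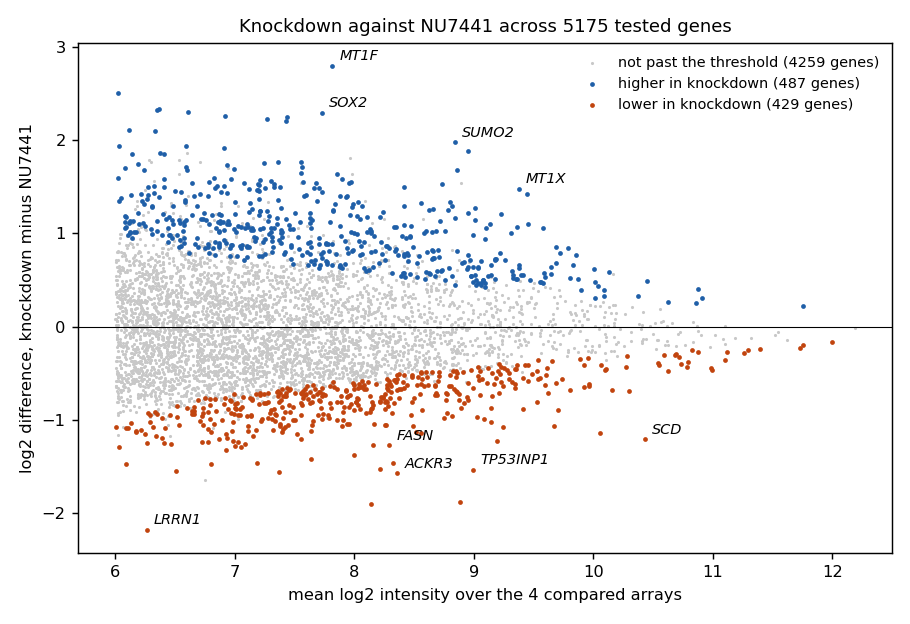
Log2 difference between knockdown and NU7441 (vertical axis) against the mean log2 intensity over the 4 compared arrays (horizontal axis), 1 point per tested gene. Blue points are the 487 genes higher in knockdown, orange points the 429 lower genes, with MT1F the highest at 2.79 and LRRN1 the lowest at -2.17.

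The count depended on the arrays and on the spread model. Leaving out knockdown replicate 1 or 2 left 116 and 175 genes past the threshold, and leaving out NU7441 replicate 1 or 2 gave 1793 and 2855. The count was 594 with no further scaling, 235 without the mean-variance trend and 1594 with the control arrays in the fit. With each array centred on its median the count was 965, but only 34.8% of those were higher in knockdown, against 53.2% here. Across these settings each of the 916 genes that was tested kept its direction, except 1 gene when the probesets of a gene were averaged. Only a change of scaling, floor or probeset could have turned a direction. The groups did not overlap at any of the 916 genes, so leaving out 1 array could not. The fits without the trend or with the controls use the same group means. Of the 30 genes named by the size of their difference, 12 and 10 lost their call without knockdown replicate 1 and 2. Of the other 81 genes given with values below, 62 passed the threshold here, and 43, 38 and 33 of them lost it without knockdown replicate 1, without knockdown replicate 2 and without the mean-variance trend.

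The control arrays lay near the knockdown arrays. For 860 of the 916 genes (93.9%) the control mean was nearer to knockdown than to NU7441, which also held for 78.5% of all tested genes. The median distance of the control mean from knockdown was 0.231 over the 916 genes and that from NU7441 was 0.964. The control mean lay between the treatments for 280 genes, beyond knockdown for 627 and beyond NU7441 for 9. For most of these genes the NU7441 arrays were therefore the ones away from control. The 56 genes with the opposite arrangement are described at the end.

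Among the 15 highest differences MT1F, a metallothionein that binds zinc and copper, had the largest. Its log2 level was 9.25 and 9.17 in knockdown, 5.97 and 6.86 with NU7441 and 6.32 and 6.58 on the control arrays, a difference of 2.79 ± 0.28 (adjusted p = 0.00235). Only the knockdown arrays were high. PARPBP, which restrains homologous recombination, followed with 7.20 and 7.35 in knockdown against 4.14 and 5.39 with NU7441, a difference of 2.51 ± 0.41 (adjusted p = 0.0108). On NU7441 replicate 1 its deposited intensity was 16, the lowest value, so the size of the difference is set in part by that limit, and it was 1.88 without that array. Here the controls, at 7.41 and 7.24, matched the knockdown cells. MAD2L1, a spindle checkpoint protein, was at 7.91 and 7.62 against 4.72 and 6.20, a difference of 2.31 ± 0.43. The mitotic kinase PBK (2.25 ± 0.28), the centromere protein OIP5 (1.94 ± 0.30) and the kinetochore protein SKA1 (1.93 ± 0.38) were among the 15 as well.

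SOX2, a transcription factor of stem cells and of neuroendocrine prostate cancer, was at 8.98 and 8.78 after depletion and at 6.95 and 6.22 after inhibition, against 9.48 and 9.30 in control. The difference was 2.29 ± 0.25 (adjusted p = 0.00356), and the groups were far apart. The synaptic organiser CBLN1 (2.23 ± 0.21), the nuclear receptor RORB (2.21 ± 0.25), the BMP regulator BMPER (2.11 ± 0.51) and the chemokine CX3CL1 (1.91 ± 0.40) had the same order of levels, with control above or near knockdown and NU7441 lowest. SUMO2, the small modifier protein, was at 9.92 and 9.74 in knockdown, 7.39 and 8.32 with NU7441 and 9.86 and 9.90 in control. TEX30 (2.33 ± 0.58), EAF2 (2.33 ± 0.30) and the mitochondrial RNA-binding protein FASTKD1 (2.10 ± 0.61) completed the set. For TEX30, FASTKD1 and BMPER the NU7441 arrays themselves differed widely, with 4.15 and 6.24 for TEX30 and 4.15 and 6.41 for FASTKD1. On NU7441 replicate 1 their deposited intensities were 16, 16 and 16.1, at or near the lowest value, and without that array the differences were 1.29, 0.97 and 1.22. Their order among the 15 is therefore not given weight. Of the 15 genes 9 had an NU7441 mean at or below the filter and entered the test through the knockdown arrays.

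Of the 15 lowest differences 3, LRRN1, DOCK9 and OPTN, had a knockdown mean at or below the filter. The lowest was that of LRRN1, a leucine-rich repeat membrane protein of neurons. It was at 5.05 and 5.30 in knockdown, at 7.33 and 7.37 with NU7441 and between them in control, at 6.40 and 5.90, a difference of -2.17 ± 0.26 (adjusted p = 0.0046). ACKR3, a scavenger receptor for the chemokine CXCL12, was at 7.67 and 7.48 against 9.07 and 9.21, with control at 8.29 and 8.19. MMP16, a membrane-bound metalloprotease, had the same arrangement with 7.67 and 7.52 against 9.08 and 9.03 and control at 8.30 and 8.09. In these genes depletion lay below control and inhibition above it. RBL2, the pocket protein p130 that represses cell cycle genes in resting cells, did likewise, with 6.85 and 7.01 in knockdown, 7.62 and 7.51 in control and 8.23 and 8.47 with NU7441, a difference of -1.42 ± 0.19 (adjusted p = 0.00631). OPTN, an autophagy receptor, was at 5.20 and 5.51 against 6.93 and 6.72 (-1.47 ± 0.28), and here control, at 4.99 and 5.08, lay with knockdown. The nucleotide sugar hydrolase NUDT14 (-1.55 ± 0.24), the Cdc42 exchange factor DOCK9 (-1.55 ± 0.23), the synaptonemal complex protein SYCE3 (-1.52 ± 0.16), WDR11 (-1.46 ± 0.23), the calcineurin regulator RCAN3 (-1.32 ± 0.21) and the ciliary protein CFAP69 (-1.28 ± 0.23) were the others outside the gene lists below.

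**Figure D2:**
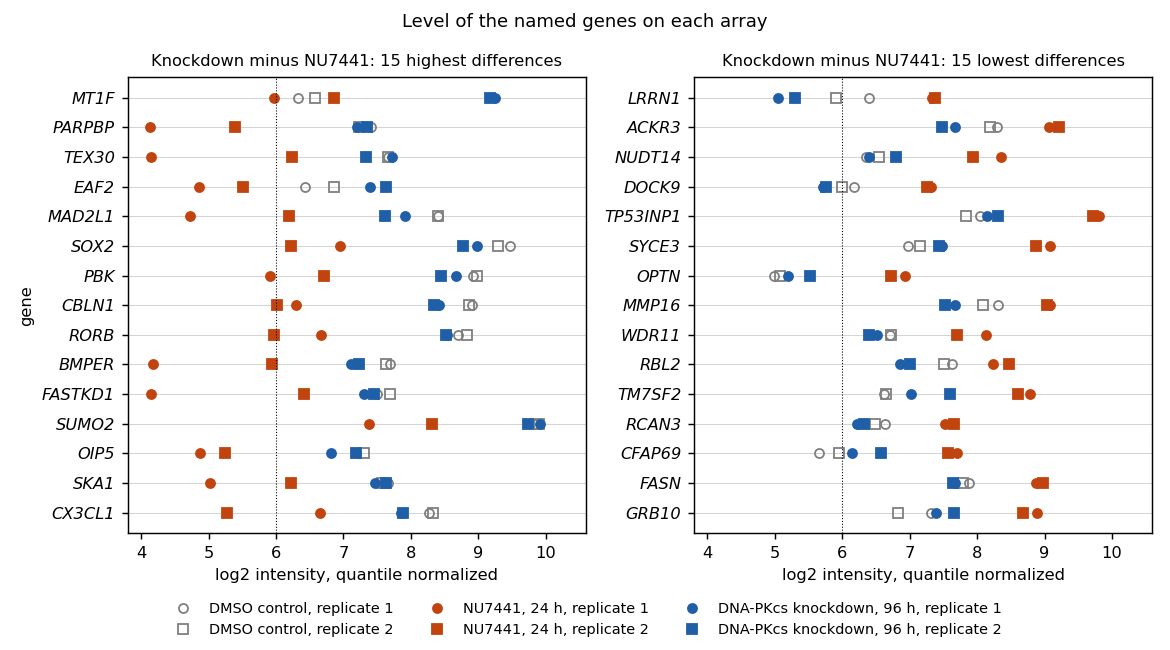
Quantile-normalized log2 intensity (horizontal axis) of the 15 genes with the highest and the 15 with the lowest difference, 1 symbol per array, with the dotted line at the filter of 6. Blue knockdown and orange NU7441 symbols do not overlap in any row, open control symbols lie near knockdown in most rows, and at MT1F they lie with NU7441.

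Of 59 listed genes of mitosis 45 had a named probeset and 40 passed the filter. Of these, 36 were higher after depletion than after inhibition and 0 were lower (90%, against 17.7% of all tested genes), with a median difference of 1.19 against -0.05 over all tested genes. For 10 of the 40 the NU7441 mean was at or below the filter, so they entered the test through the knockdown arrays. With no filter, 39 of 45 were higher. Relative to the control mean, the median over the 40 genes was -0.37 and -0.39 after depletion and -1.62 and -1.51 after inhibition. In bulk RNA, fewer dividing cells and less of these transcripts per cell cannot be told apart.

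All roles within mitosis were represented. Spindle checkpoint genes were higher in 4 of 4, with a median difference of 1.29, and condensin and cohesin genes in 3 of 3 (median 1.21). Kinesins and spindle motors were higher in 7 of 8 (median 1.41), kinetochore genes in 8 of 9 (median 1.18), and mitotic kinases and anaphase genes in 14 of 16 (median 1.12). The NU7441 mean was at or below the filter for 3 of the 4 spindle checkpoint genes and 4 of the 8 kinesins and motors. The same held for 2 of the 9 kinetochore genes and 1 of the 16 mitotic kinases and anaphase genes. SMC2, a condensin subunit, was at 8.10 and 7.50 in knockdown and at 5.77 and 6.38 with NU7441, a difference of 1.73 ± 0.30 (adjusted p = 0.0124). KIF11, the motor that separates the spindle poles, was at 8.37 and 8.38 against 6.35 and 7.11, a difference of 1.65 ± 0.26 (adjusted p = 0.00938). CENPN, a reader of the centromeric nucleosome, had the smallest difference past the threshold, 0.66 ± 0.12, with 9.49 and 9.47 against 8.75 and 8.88. CENPW, also of the centromere, had a larger difference, 1.80 ± 0.58, that did not pass (adjusted p = 0.0623). Its NU7441 arrays read 5.94 and 8.18. KIF2C (0.60 ± 0.21), FOXM1 (0.55 ± 0.25) and BIRC5 (0.54 ± 0.20) did not pass either. Without knockdown replicate 1 or 2 the list had 9 and 13 genes past the threshold, and 39 without either NU7441 array. Without the mean-variance trend it had 25.

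The promoters of these genes share sequence that the arrays did not use. RefSeq promoters on GRCh38.p14, from 250 bases before to 50 bases after the first listed start of a gene, were matched for 4305 of the 5175 tested genes. They were searched on both strands for TTTGAA, the core of the cell cycle genes homology region (CHR), and for CCAAT, the box bound by NF-Y. TTTGAA occurred in 25 of 35 mitosis promoters (71.4%), against 10.3% of the promoters of all tested genes and 15.4% of 27305 promoters. CCAAT occurred in 28 of the 35 (80%), against 39.3% and 35.7%. Among all called genes TTTGAA was in 20.8% of promoters on the higher side and in 7.37% on the lower side, and CCAAT in 47.6% and 35.1%. A match is a run of letters and not a site shown to be used. Shown here are the 250 bases before the start of KIF11, chr10:92592880-92593129 (plus strand), of KIF23, chr15:69414099-69414348 (plus strand), and of PLK1, chr16:23678639-23678888 (plus strand), with TTTGAA and CCAAT or their reverse complements in capitals. KIF23 and PLK1, a motor of the central spindle and the polo kinase, were chosen for display after their values were seen. Both were higher after depletion by 1.46 ± 0.23 and 1.25 ± 0.15.
KIF11: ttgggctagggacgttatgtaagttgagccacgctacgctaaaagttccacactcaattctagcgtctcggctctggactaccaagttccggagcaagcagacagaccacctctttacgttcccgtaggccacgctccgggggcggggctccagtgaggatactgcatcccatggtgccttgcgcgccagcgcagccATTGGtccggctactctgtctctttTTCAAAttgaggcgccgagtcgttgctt
KIF23: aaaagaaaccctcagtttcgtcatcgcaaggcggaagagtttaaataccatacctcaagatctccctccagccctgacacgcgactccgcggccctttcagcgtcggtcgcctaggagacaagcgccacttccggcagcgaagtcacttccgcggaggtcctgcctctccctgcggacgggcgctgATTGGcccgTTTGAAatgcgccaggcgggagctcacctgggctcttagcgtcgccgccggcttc
PLK1: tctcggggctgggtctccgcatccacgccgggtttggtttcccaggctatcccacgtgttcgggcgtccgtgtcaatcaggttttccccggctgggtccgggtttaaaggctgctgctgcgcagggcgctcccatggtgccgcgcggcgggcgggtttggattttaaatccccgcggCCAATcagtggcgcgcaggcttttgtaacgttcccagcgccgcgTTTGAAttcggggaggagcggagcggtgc
In each of the 3 the CCAAT box and the CHR core lie close to the start, with the CHR core at -28 in KIF11, -55 in KIF23 and -29 in PLK1, counted in bases from the start of the gene.

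Of 49 listed DNA replication genes 28 were named and 22 tested. Of these, 12 were higher after depletion and 0 lower (54.5%, against 17.7% of all tested genes), with a median of 0.71. The other 10 did not pass, among them the cyclin CCND1 at -0.30 ± 0.24. Helicase and origin genes were higher in 6 of 11 and genes of nucleotide supply in 3 of 5. The cyclin CCNE2, which drives entry into S phase, was at 7.49 and 7.67 against 5.46 and 6.71, a difference of 1.49 ± 0.38 (adjusted p = 0.035) that came to 0.86 without NU7441 replicate 1. GINS1, a subunit of the replicative helicase, was higher by 1.34 ± 0.27, the licensing factor CDC6 by 1.19 ± 0.20, and RRM2, of ribonucleotide reductase, by 1.16 ± 0.13. RRM2 was at 9.44 and 9.41 in knockdown, at 8.23 and 8.30 with NU7441 and at 9.58 and 9.59 in control. Without the mean-variance trend 4 of the 22 passed the threshold. Fewer genes passed when a knockdown array was left out and more when an NU7441 array was. Without NU7441 replicate 2 not all of those passing were higher. The list median was 0.70 to 0.72 with 1 array left out. In their promoters CCAAT occurred in 13 of 16 and the E2F motif GCGGGAA in 6 of 16 (37.5%, against 10.8% of tested genes). GCGGGAA was in the promoters of MCM7, PCNA and RRM1, which were higher, and of MCM3, GINS2 and TYMS, which did not pass. The promoters of GINS1, CDC6 and RRM2 held no match to it.

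Of 8 tested genes of homologous recombination, from 18 listed, 4 were higher after depletion and 0 were lower (50%, against 17.7% of all tested genes). The other 4 did not pass, among them BARD1 at -0.20 ± 0.12. Of the 8, 4 entered the test through the knockdown arrays. RAD51AP1, which acts in strand exchange, was at 7.48 and 7.12 against 4.95 and 5.93, a difference of 1.86 ± 0.35 (adjusted p = 0.0159). The nuclease EXO1 was higher by 1.68 ± 0.35 and RAD51C, also of homologous recombination, by 0.66 ± 0.19. With each array centred on its median, or with no further scaling, 2 genes were higher. No gene of the list passed without knockdown replicate 1, without knockdown replicate 2 or without the mean-variance trend, and 7 did without NU7441 replicate 2. In end joining, the pathway of DNA-PKcs itself, 5 of 14 listed genes were tested and 1 was higher (20%, near the 17.7% of all tested genes), while TP53BP1 was at -0.31 ± 0.22 and did not pass. The higher gene was XRCC5, the larger Ku subunit, with 9.29 and 9.03 in knockdown, 8.003 and 8.29 with NU7441 and 9.57 and 9.60 in control, a difference of 1.02 ± 0.16 (adjusted p = 0.00964). Its partner XRCC6 was at 10.07 and 10.001 against 9.75 and 9.77, a difference of 0.27 ± 0.09 that did not pass (adjusted p = 0.062). It passed without either NU7441 array, with all 6 arrays in the fit and with the filter set at 7 (adjusted p = 0.0131 to 0.0478). The XRCC5 call was lost without knockdown replicate 1 (adjusted p = 0.0971) and without the mean-variance trend (adjusted p = 0.0507).

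Of 27 listed targets of p53, 14 were named and 7 tested, of which 3 were lower after depletion and 0 higher (42.9%, against 17.7% of all tested genes). Without either knockdown array 1 was lower. TP53INP1, a stress-induced regulator of cell death and autophagy, was at 8.15 and 8.31 in knockdown and at 9.81 and 9.72 with NU7441, with control at 8.04 and 7.83, a difference of -1.53 ± 0.13 (adjusted p = 0.00118). SESN1, a sestrin that restrains mTORC1, was lower by -0.998 ± 0.19 on the log2 scale, and the cyclin CCNG1 by -0.62 ± 0.11. GDF15, a secreted stress factor, stood at about the same level in both treatments. It was at 9.20 and 9.10 in knockdown and at 9.18 and 9.22 with NU7441, above 8.09 and 8.09 in control. The difference of -0.05 had a 95% interval from -0.32 to 0.21.

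**Figure D3:**
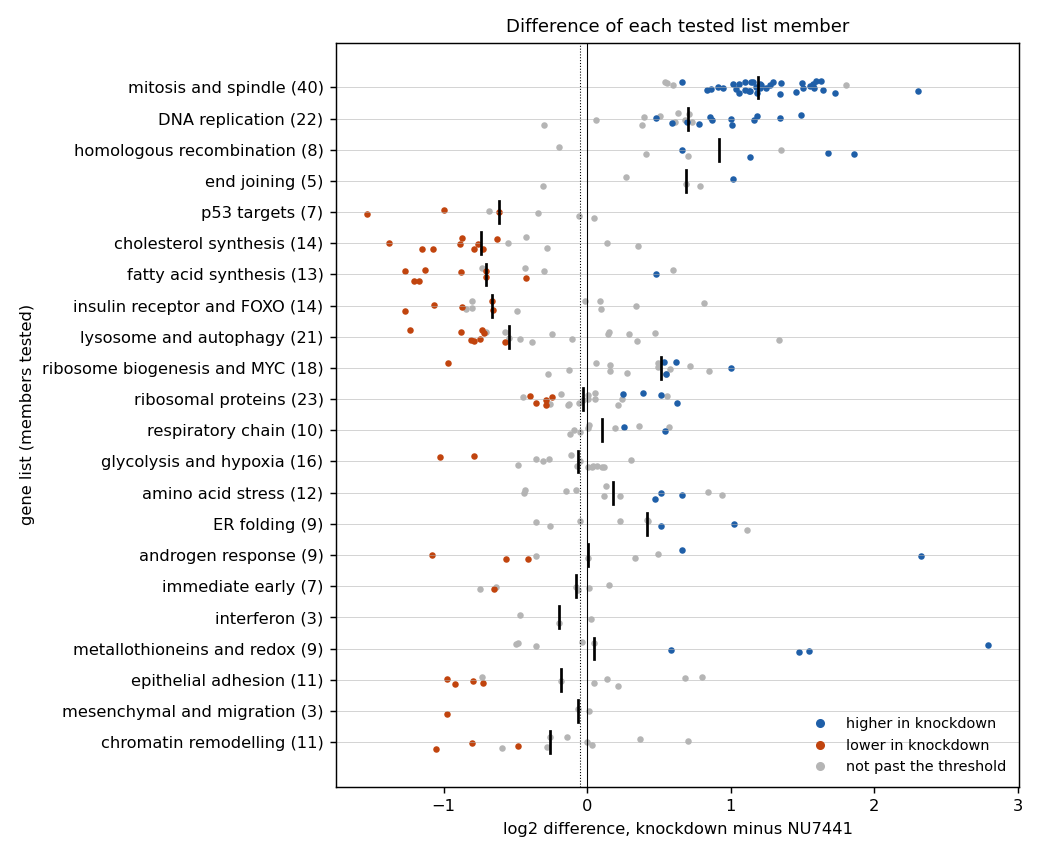
Log2 difference between knockdown and NU7441 (horizontal axis) of each tested member of 22 gene lists (rows, with the number of members tested). Black bars are list medians, the dotted line is the median of all tested genes, blue and orange points passed the threshold, and the mitosis members all lie to the right of 0.

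Of 25 listed genes of cholesterol synthesis and its control 17 were named and 14 tested. Of these, 9 were lower after depletion than after inhibition and 0 were higher (64.3%, against 17.7% of all tested genes), with a median of -0.74. Relative to the control mean the median over the 14 genes was 0.12 and 0.07 after depletion and 0.82 and 0.83 after inhibition, so the NU7441 cells were the ones away from control. TM7SF2, a sterol reductase, had the lowest difference, -1.38 ± 0.22, with 7.03 and 7.60 against 8.78 and 8.60. The SREBF2 transcript, which encodes the transcription factor SREBP2 that controls the pathway, was at 6.98 and 6.92 in knockdown, 8.43 and 7.77 with NU7441 and 7.08 and 6.81 in control, a difference of -1.15 ± 0.24 (adjusted p = 0.02). MVD, the decarboxylase of the mevalonate pathway, was at 5.43 and 5.52 against 6.69 and 6.41, a difference of -1.07 ± 0.28. Its knockdown mean lies below the filter, so it entered the test through the NU7441 arrays. DHCR7, which acts at the end of cholesterol synthesis, had -0.88 ± 0.17. HMGCS1, the synthase before the rate-limiting step, was chosen after its values were seen and had -0.79 ± 0.13, with 8.53 and 8.44 against 9.24 and 9.30. Without knockdown replicate 1 or 2 the list had 4 and 2 lower genes, and 2 without the mean-variance trend.

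CCAAT occurred in 11 of 12 promoters of the sterol list (91.7%), with more than 1 match in 8. The sterol element core CACCCCA occurred in 3 of 12 (25%, against 6.99% of tested genes). The 250 bases before the start of MVD, chr16:88663092-88663341 (minus strand), are shown because they hold both, and those of HMGCS1, chr5:43313413-43313662 (minus strand), because they hold CCAAT more than once. Capitals mark CCAAT and CACCCCA or their reverse complements.
MVD: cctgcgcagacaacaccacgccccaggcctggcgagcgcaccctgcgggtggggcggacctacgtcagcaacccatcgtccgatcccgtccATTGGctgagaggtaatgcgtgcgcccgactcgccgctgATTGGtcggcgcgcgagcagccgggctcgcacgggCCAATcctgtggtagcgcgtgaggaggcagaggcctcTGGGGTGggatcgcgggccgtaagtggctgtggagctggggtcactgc
HMGCS1: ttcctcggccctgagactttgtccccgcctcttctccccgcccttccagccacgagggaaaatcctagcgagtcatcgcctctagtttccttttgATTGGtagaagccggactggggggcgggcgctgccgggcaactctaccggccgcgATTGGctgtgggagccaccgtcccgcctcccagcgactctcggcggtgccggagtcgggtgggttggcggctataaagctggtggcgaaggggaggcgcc
MVD holds 3 CCAAT boxes and 1 sterol core at -48, and HMGCS1 holds 2 CCAAT boxes and no exact CACCCCA. The other promoters with CACCCCA were those of SREBF2, which was also lower, and of EBP (0.14 ± 0.12), which did not pass.

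Fatty acid synthesis had 13 of 22 listed genes tested, of which 8 were lower after depletion and 1 was higher (69.2%, against 17.7% of all tested genes), with a median of -0.71. SCD, the desaturase that makes oleic acid, had the smallest adjusted p of the list, with 9.94 and 9.72 in knockdown, 11.001 and 11.07 with NU7441 and 10.29 and 10.08 in control, a difference of -1.21 ± 0.09 (adjusted p = 0.000908). FASN, the fatty acid synthase, was at 7.68 and 7.64 against 8.87 and 8.98, with control at 7.88 and 7.79, a difference of -1.27 ± 0.15. LPIN1, a phosphatidate phosphatase, had -1.17 ± 0.21 and ACSL1, which couples fatty acids to coenzyme A, -1.13 ± 0.15. The exception was the elongase ELOVL5, at 10.21 and 10.30 in knockdown, 9.79 and 9.76 with NU7441 and 9.81 and 9.79 in control, a difference of 0.48 ± 0.09 (adjusted p = 0.0134). In SCD and FASN the knockdown arrays lay below both controls, while in ELOVL5 they lay above all other arrays. Without knockdown replicate 1 or 2, and also without the mean-variance trend, 5 genes were lower.

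FOXO targets are held down by PI3K and AKT. Together with genes of insulin receptor signalling, 14 of 27 listed genes were tested. Of these, 5 were lower after depletion and 0 higher (35.7%, against 17.7% of all tested genes), with a median of -0.66. GRB10, an adaptor that dampens the insulin receptor, was at 7.38 and 7.66 against 8.89 and 8.69, with control at 7.31 and 6.83, a difference of -1.27 ± 0.18 (adjusted p = 0.00676). CCNG2, a cyclin induced in resting cells, was at 7.38 and 7.35 in knockdown, 8.41 and 8.44 with NU7441 and 7.64 and 7.38 in control, a difference of -1.07 ± 0.17. The repressor BCL6 had -0.87 ± 0.18. The FOXO motif GTAAACA occurred in 2 of 12 promoters of the list (16.7%, against 2.56% of tested genes). Those promoters belong to TRIB2 (0.82 ± 0.24) and TXNIP (0.10 ± 0.29), which did not pass, and the promoters of the 5 lower genes held no match. Without either knockdown array 1 gene was lower, without the mean-variance trend 3 were, and without NU7441 replicate 2 the number was 10.

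Lysosome and autophagy genes had 21 of 42 listed genes tested, of which 8 were lower after depletion and 0 higher (38.1%, against 17.7% of all tested genes), with a median of -0.55. Of the 13 that did not pass, 6 had a difference above 0, with the widest, 1.33 ± 0.56, at the acid ceramidase ASAH1. Enzymes and membrane proteins of the lysosome made up 6 of the 8. NEU1, the lysosomal sialidase, was at 6.35 and 6.46 in knockdown, 7.76 and 7.52 with NU7441 and 5.79 and 6.01 in control, a difference of -1.23 ± 0.21 (adjusted p = 0.013). GRN, the precursor of lysosomal granulins, was at 6.66 and 7.11 against 7.64 and 7.89, with control at 5.89 and 5.93, a difference of -0.88 ± 0.23. The protease TPP1 had -0.81 ± 0.21 and the cathepsin CTSB -0.79 ± 0.23. The median over the 21 genes relative to control was 0.31 and 0.39 after depletion and 0.77 and 0.91 after inhibition, so the list median lay above control on all 4 arrays. With no further scaling 3 genes were lower, and 1 was lower without either knockdown array or without the mean-variance trend.

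The lysosomal E-box CACGTGA, bound by TFEB and its relatives, occurred in 7 of 15 promoters of the list (46.7%, against 6.85% of tested genes). Its reverse complement overlaps it by 6 letters, so a palindrome counts on both strands. The matches were in the promoters of NEU1 and FNIP1, which were lower, and of ATG14, CTSA, CTSD, LAMP1 and MCOLN1, which did not pass. The promoters of the lower genes SQSTM1, TPP1 and GRN held no match. The 250 bases before the start of NEU1, chr6:31862822-31863071 (minus strand), are shown with the match in capitals, which begins at -127.
NEU1: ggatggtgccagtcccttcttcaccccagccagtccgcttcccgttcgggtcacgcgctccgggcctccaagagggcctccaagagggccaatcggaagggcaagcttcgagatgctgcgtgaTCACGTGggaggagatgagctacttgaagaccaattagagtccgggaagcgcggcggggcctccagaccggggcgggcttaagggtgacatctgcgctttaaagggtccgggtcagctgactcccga

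**Figure D4:**
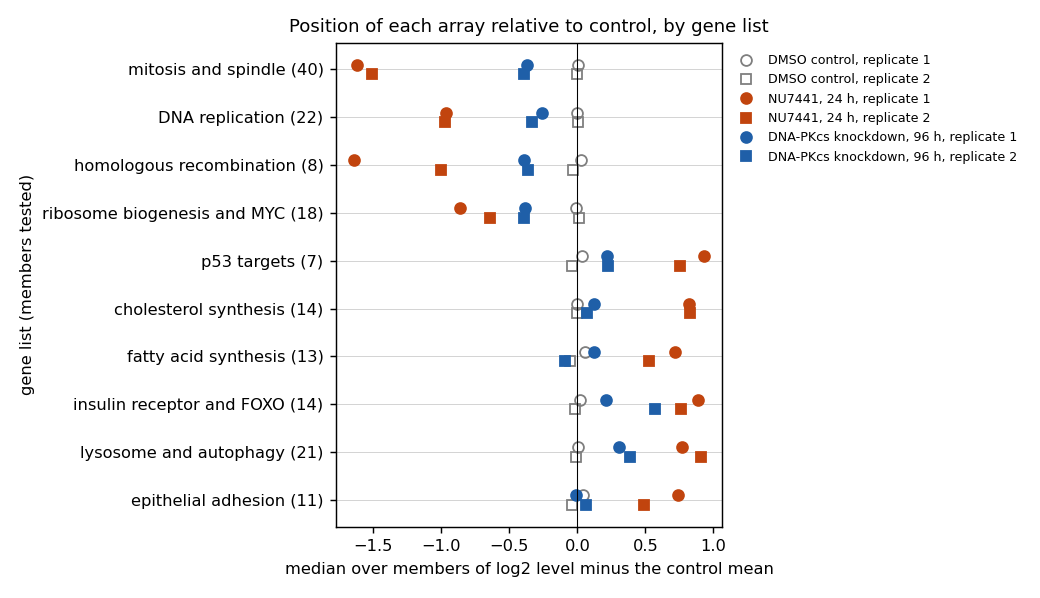
Median over the tested members of each list of the log2 level minus the control mean (horizontal axis), 1 symbol per array. For mitosis the NU7441 arrays lie at -1.62 and -1.51 and the knockdown arrays at -0.37 and -0.39, and for cholesterol synthesis the NU7441 arrays lie at 0.82 and 0.83 while the knockdown arrays lie at 0.12 and 0.07.

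The MYC transcript was lower after depletion, at 8.53 and 8.56 against 9.68 and 9.35 with NU7441 and 8.50 and 8.37 in control, a difference of -0.97 ± 0.14 (adjusted p = 0.00796). Among 18 tested genes of ribosome biogenesis, MYC included, 4 were higher after depletion, 13 did not pass and MYC was the only lower one (27.8% called, against 17.7% of all tested genes). NOP58, a core protein of box C/D small nucleolar RNPs, was at 9.23 and 8.95 against 8.10 and 8.07, with control at 9.45 and 9.47, a difference of 1.00 ± 0.15 (adjusted p = 0.00886). ODC1, the first enzyme of polyamine synthesis and a MYC target, was higher by 0.62 ± 0.09. With each array centred on its median, 2 genes of this list were higher in place of 4. Without knockdown replicate 1 or 2, 1 and 2 were higher, without NU7441 replicate 1 or 2, 7 and 12, and without the mean-variance trend 1, where the MYC call was also lost (adjusted p = 0.0507). Ribosomal proteins of the cytosol were mixed in direction, with 4 higher and 5 lower among 23 tested (39.1% called, against 17.7% of all tested genes). Their median was -0.03. RPS23 was higher by 0.62 ± 0.13 and RPL10A lower by -0.40 ± 0.07.

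Stress and metabolic lists moved less. In amino acid stress 3 of 12 tested genes were higher after depletion and 0 lower, among them the pseudokinase TRIB3 (0.66 ± 0.18), at 8.17 and 7.93 against 7.35 and 7.41. In ER folding 2 of 9 were higher, led by the cochaperone SDF2L1, at 9.23 and 9.31 against 8.45 and 8.05, with control at 8.81 and 8.86. Glycolysis and hypoxia had 2 lower genes of 16, led by the mitophagy receptor BNIP3L, at 8.80 and 8.47 against 9.65 and 9.67 (-1.02 ± 0.14). The respiratory chain had 2 higher of 10, and immediate early genes 1 lower of 7. These shares are at or near the 17.7% of all tested genes. In the interferon list, which siRNA duplexes can trigger, 13 of 16 named genes were below the filter, and 0 of the 3 tested passed.

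Of 9 tested androgen targets from 29 listed, 2 were higher after depletion and 3 lower (55.6%, against 17.7% of all tested genes), with a median of 0.00. The higher genes were EAF2 and CENPN, and CENPN is also counted in the mitosis list. EAF2, an androgen-induced elongation factor partner, was at 7.39 and 7.62 against 4.86 and 5.51 with NU7441, with control between them at 6.44 and 6.87. Its NU7441 mean of 5.18 was below the filter, so it entered the test through the knockdown arrays. KLK4, a prostate protease, was at 8.54 and 8.87 against 9.81 and 9.77, a difference of -1.08 ± 0.14 (adjusted p = 0.00578). KLK3, which encodes PSA, was at 9.45 and 9.47 against 10.18 and 9.87, a difference of -0.56 ± 0.12. Thus in knockdown EAF2 lay above control, whereas KLK4 and KLK3 lay near it and lay above it on the NU7441 arrays.

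The prostate identity of the cells was checked by markers. All 5 named luminal markers were above 6 on every array, among them, chosen after their values were seen, KRT18 between 8.44 and 8.91 and FOLH1 between 9.90 and 10.58. The summed intensity of the luminal markers was 2430 and 2300 in knockdown, 2880 and 3120 with NU7441 and 2520 and 2470 in control. Both KLK3 and HOXB13 were lower after depletion, and the other 3 did not pass. No named basal (4), stromal (2) or endothelial (4) marker passed the filter, and their summed intensities over the 6 arrays were 94.4 to 152, 36.4 to 50.8 and 80.9 to 127. Of 3 leukocyte markers only CD68 was tested, and it did not pass, with sums of 169 to 198. Of 9 named neuroendocrine markers only SOX2 and NKX2-1 were tested, and both were higher after depletion. NKX2-1, a lineage factor of lung and brain chosen after its values were seen, was at 7.97 and 7.72 against 6.64 and 5.98, with control at 8.36 and 8.47. The other 7, CHGA and SYP among them, lay between 4.03 and 5.50 on every array. The summed intensity of the neuroendocrine markers was 946 and 822 in knockdown, 385 and 310 with NU7441 and 1240 and 1170 in control. The part of these markers in the other differences was not tested. HOXB13, a prostate lineage factor also chosen after its values were seen, was at 6.90 and 6.73 in knockdown, 7.95 and 7.67 with NU7441 and 7.35 and 7.45 in control, a difference of -0.99 ± 0.21 (adjusted p = 0.0192).

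Adhesion genes were partly lower after depletion than after inhibition. In the epithelial list 4 of 11 tested genes were lower and 0 higher (36.4%, against 17.7% of all tested genes), and 5 of the 11 had a difference above 0. For 2 of the 11 a group mean was at or below the filter, so they entered the test through the other group. The lower gene PKP2 was dim in knockdown, with deposited intensities of 54.9 and 68 against 105 and 120 with NU7441. Of 6 tested parts of desmosomes, PKP2 (-0.97 ± 0.25), DSP (-0.80 ± 0.17) and JUP (-0.92 ± 0.19) were lower. The other 3 did not pass and had differences above 0, with 0.80 ± 0.27 for DSG2, 0.68 ± 0.27 for DSC2 and 0.14 ± 0.24 for PKP3. JUP was at 7.77 and 7.94 in knockdown, 9.002 and 8.54 with NU7441 and 7.83 and 7.81 in control. Relative to the control mean, the median over the 11 genes was -0.01 and 0.065 after depletion and 0.74 and 0.49 after inhibition. By list median the NU7441 arrays were therefore the ones away from control. None of the 4 was called without either knockdown array, and 1 was without the mean-variance trend. Among genes of mesenchymal cells and migration 9 of 12 named were below the filter. VCL, the focal adhesion protein vinculin, was the 1 lower gene of 3 tested (33.3%, against 17.7% of all tested genes). It was at 6.45 and 7.12 against 7.90 and 7.62 (-0.97 ± 0.26).

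In chromatin remodelling 3 of 11 tested genes were lower after depletion and 0 higher (27.3%, against 17.7% of all tested genes). CHD3, an ATPase of the NuRD complex, was at 7.55 and 7.90 against 8.95 and 8.62, a difference of -1.06 ± 0.19 (adjusted p = 0.0138), and PBRM1, a subunit of the PBAF complex, had -0.80 ± 0.15. BRD7, another PBAF subunit, was equal in the treated cells and far from control. It was at 7.31 and 7.29 in knockdown and at 7.25 and 7.28 with NU7441, against 9.20 and 9.13 in control. The difference of 0.04 had a 95% interval from -0.40 to 0.48. It turned to -0.04 with each array centred on its median.

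Among 17 tested microRNA genes 5 were lower after depletion and 1 was higher (35.3%, against 17.7% of protein-coding genes), a description over few genes. The knockdown mean of the lower gene MIRLET7C (5.57) and the NU7441 mean of the higher gene MIR4442 (5.665) were below the filter. Each entered the test through the group where it was high. A probeset of this array cannot separate a precursor or its host RNA from the mature strand. The mature strands, as RefSeq lists them, show which of the lower genes share a seed (bases 2 to 8, in capitals). All microRNA genes named here were chosen after their values were seen.
let-7a-5p: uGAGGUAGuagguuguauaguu
let-7c-5p: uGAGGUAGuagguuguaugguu
miR-99a-5p: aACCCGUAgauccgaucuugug
miR-29c-3p: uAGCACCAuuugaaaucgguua
On GRCh38.p14 the mature strand of MIRLET7A3 lies at chr22:46112752-46112773 and that of MIRLET7C at chr21:16539838-16539859, and both have the same seed. The mature strand of MIR99A, at chr21:16539101-16539122, lies near that of MIRLET7C, and the long noncoding gene MIR99AHG spans both. The mature strand of MIR29C lies at chr1:207801865-207801886, within MIR29B2CHG.

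MIR99A was at 7.30 and 7.08 in knockdown, 8.89 and 9.28 with NU7441 and 7.26 and 7.15 in control, a difference of -1.90 ± 0.19 (adjusted p = 0.00235). Its host MIR99AHG was at 8.35 and 8.27 against 8.87 and 8.99, a smaller difference of -0.62 ± 0.14. MIRLET7C, from the same host, was at 5.64 and 5.50 against 6.32 and 6.98, with control at 6.31 and 6.16, a difference of -1.08 ± 0.31 (adjusted p = 0.0476). MIR99A thus lay above control on the NU7441 arrays and near it in knockdown, whereas MIRLET7C in knockdown lay below control. MIR29C was at 6.80 and 6.73 against 8.21 and 7.53 (-1.10 ± 0.25) and MIRLET7A3 at 6.31 and 6.49 against 7.57 and 7.22 (-0.996 ± 0.23). The higher gene was MIR4442 (0.95 ± 0.26). Long noncoding genes had 12 higher and 16 lower among 182 tested (15.4%).

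The genes for which control lay nearer to NU7441 show where depletion stood apart, and the metallothioneins MT1F and MT2A were among them. All 3 metallothioneins tested were higher after depletion (100%, against 17.7% of all tested genes called). MT1X was at 10.05 and 10.18 in knockdown, 8.71 and 8.56 with NU7441 and 9.32 and 9.55 in control, a difference of 1.48 ± 0.12 (adjusted p = 0.000962). MT2A was at 10.42 and 10.44, against 9.90 and 9.79 and 9.77 and 9.80 in control, a difference of 0.59 ± 0.08 (adjusted p = 0.00721). MT1F and MT2A lay above control in knockdown and near it with NU7441. For MT1X the control mean lay between the treatments, at about the same distance from each. Another 4 metallothionein genes were below the filter. These genes are near-identical copies whose probes may share signal. GSTA1, a glutathione transferase, was at 7.50 and 7.61 in knockdown against 6.20 and 5.83 and 6.08 and 6.16 in control. The other 5 genes of NRF2 and glutathione did not pass, among them the thioredoxin reductase TXNRD1 at -0.48 ± 0.15 (adjusted p = 0.0559).

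The metal response core, searched on both strands as TGCACNC and TGCGCNC and bound by MTF1, was added to the search after the values were seen. It occurred in both metallothionein promoters that could be matched, with more than 1 match each, against 40.7% of tested genes with any match and 29.3% of all promoters. The 250 bases before the start of MT1X, chr16:56682220-56682469 (plus strand), are shown with the 4 matches, on either strand, in capitals.
MT1X: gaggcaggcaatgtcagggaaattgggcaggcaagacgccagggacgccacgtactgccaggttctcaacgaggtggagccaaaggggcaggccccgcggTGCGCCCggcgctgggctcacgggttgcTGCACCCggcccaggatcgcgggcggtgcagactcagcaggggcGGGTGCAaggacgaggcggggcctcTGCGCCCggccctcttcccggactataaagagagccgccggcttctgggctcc
The 4 matches begin at -150, -122, -78 and -53.

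Other genes on this side were chosen after their values were seen. SLPI, a secreted inhibitor of serine proteases, was at 9.77 and 10.01 in knockdown, 8.0 and 8.02 with NU7441 and 8.52 and 8.68 in control, a difference of 1.88 ± 0.13 (adjusted p = 0.000908). AGR2, a disulfide isomerase of secretory epithelium, was at 7.09 and 7.04 against 5.05 and 5.38, with control at 5.68 and 5.93, a difference of 1.85 ± 0.27. The thiol reductase GLRX had 1.71 ± 0.36 and the thyroid hormone carrier TTR, at 8.29 and 8.52 against 7.05 and 6.78, had 1.48 ± 0.20. In these 4 genes depletion lay above control and inhibition below it or overlapping it. The NU7441 means of AGR2 (5.22) and GLRX (5.74) were below the filter, so these genes entered the test through the knockdown arrays. LUZP2 went the other way, at 5.46 and 5.89 in knockdown, 6.88 and 6.76 with NU7441 and 6.77 and 6.70 in control, a difference of -1.15 ± 0.28 (adjusted p = 0.0295). Here the NU7441 and control arrays were together and the knockdown arrays were low. The knockdown mean of LUZP2 (5.67) was below the filter, so it entered the test through the NU7441 arrays. MYO6, the myosin that moves toward the minus end of actin, was at 9.48 and 9.50 in knockdown, 10.59 and 10.67 with NU7441 and 10.25 and 10.19 in control. Its difference of -1.14 ± 0.08 (adjusted p = 0.000908) was among the most precisely measured.

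**Figure D5:**
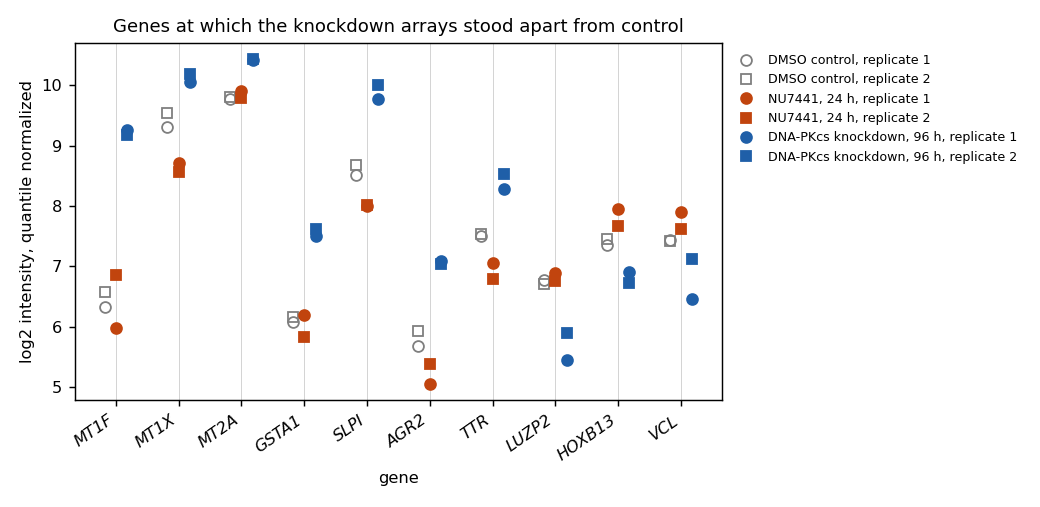
Quantile-normalized log2 intensity (vertical axis) on each array of 10 genes at which the knockdown arrays lay away from control. Blue knockdown symbols are above both other groups for MT1F through TTR and below them for LUZP2, HOXB13 and VCL, with MT1F at 9.25 and 9.17 in knockdown.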

How the data were processed

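Each of the 6 samples, 2 per group, has 1 Affymetrix Human Gene 2.0 ST array. The authors deposited a linear intensity for every probeset, none below 16. How they were summarised and normalized is not given in the sources used here. The intensities were turned into log2 and quantile normalized over 6 arrays and all 44629 probesets. The platform table names 1 gene for 15835 probesets, several for 0 and none for 28794. Each gene was represented by its brightest probeset, and 5175 of 14812 genes had a mean log2 above 6 over the 4 compared arrays.

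Groups were fitted with limma 3.58.1 (R 4.3.3), using a mean-variance trend on 2 residual degrees of freedom, with Benjamini-Hochberg adjustment over all tested genes at 0.05. The script was tested on simulated data. The members and lists were chosen with earlier results of these data known. Genes were named as the 15 highest and 15 lowest called genes, leaving out small RNAs, pseudogenes, antisense and unnamed genes, up to 4 at each end of a list, and the study's own genes. Genes outside the rule are marked as chosen after their values were seen. Of the study's genes PRKDC, PREX1, ROCK2 and ITGB4 had no named probeset and VAV3 was below the filter. The arrays are labelled as biological replicates, and p-values measure the spread between 2 per group. The number of arrays limits the precision. Alternatives covered scaling, floor, filter, probeset choice, trend, arrays in the fit, blocks and left-out arrays. Promoters and microRNAs come from RefSeq on GRCh38.p14, and no array column was left without a sample.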

Additional observations from a re-analysis of the deposited data

How the results depend on the processing

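Counts of called genes moved with the settings, several of which could not turn a called direction. Against 916 genes past the threshold (487 higher and 429 lower in knockdown), there were 594 (324 and 270) with no further scaling, 235 (140 and 95) without the mean-variance trend and 1594 (803 and 791) with all 6 arrays in the fit. Leaving out 1 array at a time gave 116 to 2855 genes, with 55 to 1377 higher and 61 to 1478 lower. The lone array of a group is then assumed to vary like the other group, and the knockdown arrays were the tighter pair. The other planned settings of scaling, floor, filter and probesets gave 845 to 965 genes. Replicate numbers did not pair the arrays, since the deviations of same-numbered arrays correlated at -0.164 over 5175 genes. With a replicate block 1154 genes passed, and with crossed numbers as a block, chosen after seeing the data, 1443 did (773 and 670). Among the genes named with values, 3 that did not pass turned their sign. The BRD7 log2 difference was -0.037 with each array centred on its median. The TXNIP log2 difference was -0.039 with that centring, -0.319 with all probesets averaged and -0.389 to 0.589 with 1 array left out. The PKP3 log2 difference was -0.049 to 0.323 with 1 array left out. The cause of these changes was not tested. Dim genes were limited by the lowest intensity of 16, which NU7441 replicate 1 reached more often than the other arrays.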
